A study of Mus musculus with 9 samples.

Results

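Fibronectin (FN1), tenascin C (TNC), thrombospondins 1 and 2 (THBS1, THBS2), SPARC, osteopontin (SPP1), nephronectin (NPNT), periostin (POSTN) and EDIL3 are secreted glycoproteins of the extracellular matrix that cells adhere to or read through surface receptors. These 9 genes were listed by name and each matched exactly 1 of the 58735 rows of the count table. Of the 9, 8 passed the count filter that left 15492 genes for testing, and POSTN did not. The libraries come from Caki, an established human renal carcinoma line, and form 3 groups of 3. The sample titles name the line only as Caki. The MX group carried an empty retroviral vector, the YAP1 group the same type of vector with YAP1 in its wild-type form, and the YAP1-S127A group a constitutively active YAP1 in which alanine replaces the serine at residue 127. All 3 groups were grown in DMEM/F12 with serum and selected with G418, so the controls went through the same vector and drug. No source used here gives the promoter of the vectors or says whether the lines are clones or mixed populations.

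Fibronectin is secreted as a dimer and assembled by integrins at the cell surface into fibrils, on which collagens and other matrix proteins are laid down. Tenascin C, the thrombospondins, SPARC, osteopontin and periostin are matricellular proteins, which tune adhesion, growth factor supply and collagen assembly more than they bear load. YAP1 is a transcriptional coactivator of TEAD factors that responds to adhesion and stiffness, and phosphorylation at the mutated serine keeps it out of the nucleus. The design asks which transcripts differ when either form of YAP1 is added and where the construct groups differ. Those groups also differed in the level of the YAP1 transcript, so form and level cannot be told apart. In bulk RNA, fewer cells that make a transcript and less of it per cell cannot be told apart.

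Libraries held 15789722 to 24811150 counts, so that 3 counts stood for 0.107 to 0.229 CPM (counts per 1e6 counts of the library, after TMM scaling, which sets the bulk of genes level between libraries). The YAP1 transcript itself, construct and native gene together, stood at 91.1 to 108 CPM in MX, 1003 to 1519 CPM in YAP1 and 631 to 741 CPM in YAP1-S127A libraries. The mitochondrial genome contributed 1.896 to 6.60% of counts in MX, 3.50 to 11.4% in YAP1 and 7.40 to 29.6% in YAP1-S127A (two-sided exact permutation p = 0.4 and 0.1 against MX and 0.3 between the constructs, where 0.1 is the smallest p possible). MX replicate 1 had 25491 genes with a count, against 21568 to 23156 in the other libraries. Of the kidney markers looked for, PAX8 averaged 285 CPM in MX and KRT8 1810 CPM, while CA9 was at 0.489 CPM and PAX2 had no count there. Endothelial and leukocyte markers summed to at most 1.93 and 1.68 CPM in any library. Separate cultures are not mentioned in the labels, so p-values cover the spread between libraries, which may be technical. The organism label is mouse, but the table lists human genes, so the values are read as human, and the human build of the positions given is not stated.

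With YAP1, 2 of the 9 genes were higher than in MX (NPNT and FN1) and 1 was lower (SPP1), at a Benjamini-Hochberg adjusted p under 0.05 over all tested genes (quasi-likelihood test of edgeR). This test called 6.81% of all genes in that comparison, 3.23% as higher and 3.58% as lower. With YAP1-S127A, 2 were higher than in MX (NPNT and SPARC) and 2 lower (SPP1 and THBS2), where 18.4% of all genes were called, 9.53% higher and 8.84% lower. Directly between the constructs, 1 gene passed, THBS2, lower with YAP1-S127A, where 0.839% of all genes were called lower, 1.13% higher and 1.97% in either direction. The libraries of the groups compared did not overlap for 3, 4 and 3 of the 8 tested genes, against 24.1%, 32.6% and 19.6% of all genes. Of these 8, 2 lay higher and 1 lower with YAP1 (12.1% and 12.0% of all genes), 2 higher and 2 lower with YAP1-S127A (16.7% and 16.0%), and 1 higher and 2 lower between the constructs (10.3% and 9.34%). The median log2 fold change of the 8 was 0.08, 0.21 and 0.05 in the 3 comparisons, against 0.00, 0.00 and 0.01 over all genes. Under scaling to total counts the median over all genes was -0.08, -0.28 and -0.20 in the 3 comparisons. Calls higher and lower went from 500 and 555 to 311 and 679 with YAP1. They went from 1476 and 1369 to 611 and 3836 with YAP1-S127A, and from 175 and 130 to 113 and 503 between the constructs. Comparisons against MX share the MX libraries and are therefore not independent of each other. With the mitochondrial share as a covariate, 3 and 4 of the genes were called in the comparisons against MX, the same numbers as without it.

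**Figure D1:**
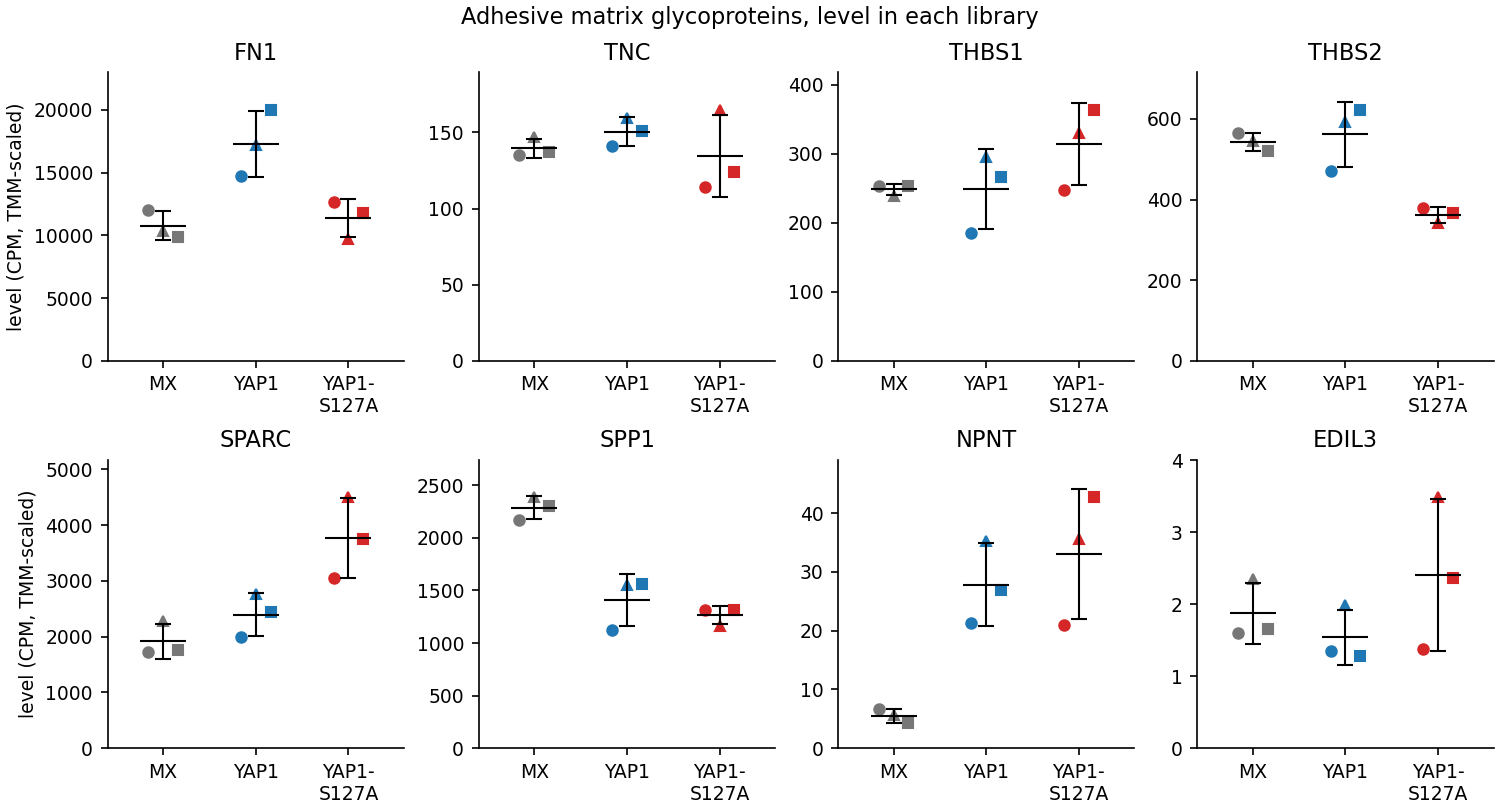
Level of each tested gene in each library (y axis, CPM scaled by TMM, from 0), by group (x axis). Circles, triangles and squares are replicates 1, 2 and 3, the long bar is the mean and the whiskers are 1 SD (n = 3); FN1 is highest in the YAP1 libraries (14742 to 20006 CPM), SPARC in the YAP1-S127A libraries (3058 to 4504 CPM) and SPP1 in the MX libraries (2167 to 2387 CPM).

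FN1 (ENSG00000115414, chromosome 2, 215360440 to 215436172, minus strand) encodes fibronectin, whose RGD sequence is bound by integrin alpha-5 beta-1 and by alpha-v integrins. It was the most counted gene outside the mitochondrial genome in all 9 libraries. The MX libraries held 12068, 10338 and 9886 CPM in replicates 1, 2 and 3. The YAP1 libraries held 14742, 17198 and 20006 CPM. The YAP1-S127A libraries held 12697, 9735 and 11824 CPM. Every YAP1 library was thus above every library of the other groups, while MX and YAP1-S127A libraries were interleaved. With YAP1 the mean rose from 10764 ± 1152 to 17316 ± 2634 CPM (SD, n = 3), by 0.69 on the log2 scale (SE 0.17, edgeR adjusted p = 0.0154). That call was lost without MX replicate 3 (adjusted p = 0.0907), YAP1 replicate 2 (0.0590) or YAP1 replicate 3 (0.1001). With YAP1-S127A the mean was 11419 ± 1522 CPM (SD, n = 3) and the log2 fold change against MX was 0.09, with a 95% interval of -0.26 to 0.43 and an adjusted p of 0.780. That small difference changed sign under total counts (-0.21), with the mitochondrial share as covariate (-0.25) and without YAP1-S127A replicate 1 (-0.00171).

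Between the constructs FN1 had a log2 fold change of -0.60 (YAP1-S127A against YAP1, SE 0.17, edgeR adjusted p = 0.0756). This did not pass, although the libraries did not overlap. It passed in DESeq2 (adjusted p = 0.00150), in the fit without mitochondrial genes (0.0484) and without MX replicate 1 (0.0354), and had its highest adjusted p, 0.316, without YAP1 replicate 3. Whether FN1 counts as different between the constructs thus depends on the tool and on single libraries. FN1 made up 76.1 to 79.8% of the counts of the 9 genes in the YAP1 libraries, 64.8 to 71.3% in MX and 59.8 to 71.2% in YAP1-S127A, a share that does not depend on how libraries are scaled. Counts per gene do not separate the splice forms of fibronectin that include or skip its extra domains.

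TNC (ENSG00000041982, chromosome 9, 115019578 to 115118257, minus strand) encodes tenascin C, a six-armed protein that modulates cell attachment to fibronectin. It stood at 135, 147 and 137 CPM in MX, 141, 159 and 151 CPM in YAP1 and 114, 165 and 124 CPM in YAP1-S127A libraries. All 3 groups overlapped, and the YAP1-S127A group held both the lowest and the highest library. The log2 fold change was 0.11 with YAP1 (95% interval -0.16 to 0.38, adjusted p = 0.713) and -0.06 with YAP1-S127A (-0.33 to 0.22, adjusted p = 0.822). The second of these changed sign with the mitochondrial share as covariate (0.20) and without YAP1-S127A replicate 1 (0.0445).

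The thrombospondin paralogs THBS1 and THBS2 encode trimeric glycoproteins that both inhibit the growth of vessels. THBS1 (ENSG00000137801, chromosome 15, 39581079 to 39599466, plus strand) can in addition activate latent TGF-beta. It was at 253, 239 and 253 CPM in MX, 185, 296 and 266 CPM in YAP1 and 248, 331 and 364 CPM in YAP1-S127A libraries. Replicate 1 was the lowest library of both construct groups, and no group was separate from another. The log2 fold change against MX was 0.00 with YAP1 (95% interval -0.33 to 0.33, adjusted p = 0.999, of no settled sign) and 0.34 with YAP1-S127A (0.00 to 0.67, adjusted p = 0.154). That value was 0.0747 under total counts and 0.213 to 0.478 without single libraries. Between the constructs it was 0.34 (0.00 to 0.67, adjusted p = 0.402).

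THBS2 (ENSG00000186340, chromosome 6, 169215780 to 169254044, minus strand) is a ligand of the receptor CD36 and, unlike THBS1, lacks the sequence that activates TGF-beta. It was at 565, 545 and 519 CPM in MX, 470, 593 and 622 CPM in YAP1 and 378, 341 and 367 CPM in YAP1-S127A libraries. The 3 YAP1-S127A libraries lay below all 6 others. THBS2 fell with YAP1-S127A from 543 ± 22.9 to 362 ± 19.0 CPM (SD, n = 3), with a log2 fold change of -0.59 (SE 0.13, edgeR adjusted p = 0.00246). The median log2 fold change of all tested genes on chromosome 6 was 0.16 in that comparison. This whole-chromosome value does not describe the genes near THBS2, and a part of chromosome position in the fall was not tested. With YAP1 the log2 fold change was 0.05 (95% interval -0.21 to 0.31, adjusted p = 0.881). Against YAP1, THBS2 was lower with YAP1-S127A by a log2 fold change of -0.63 (SE 0.13, edgeR adjusted p = 0.00855). That last call was lost without YAP1 replicate 2 (adjusted p = 0.0565) or 3 (0.0821) and without YAP1-S127A replicate 2 (0.0567) or 3 (0.0548), and with YAP1-S127A represented by replicate 2 alone, where the fold was larger (log2 fold change -0.73, adjusted p = 0.131) and the lone library was assumed to vary like the other groups.

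The ratio of THBS1 to THBS2 within a library, each per kilobase of gene length, was 0.314, 0.307 and 0.342 in MX and 0.275, 0.350 and 0.299 in YAP1. In YAP1-S127A it was 0.460, 0.679 and 0.694, so that THBS2 remained the more abundant transcript in every library but by a smaller margin. The means were 0.321 ± 0.0183, 0.308 ± 0.0381 and 0.611 ± 0.131 (SD, n = 3). The ratio was chosen after the values were seen and carries no test. Without single libraries its YAP1-S127A mean was 0.569 to 0.686.

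**Figure D2:**
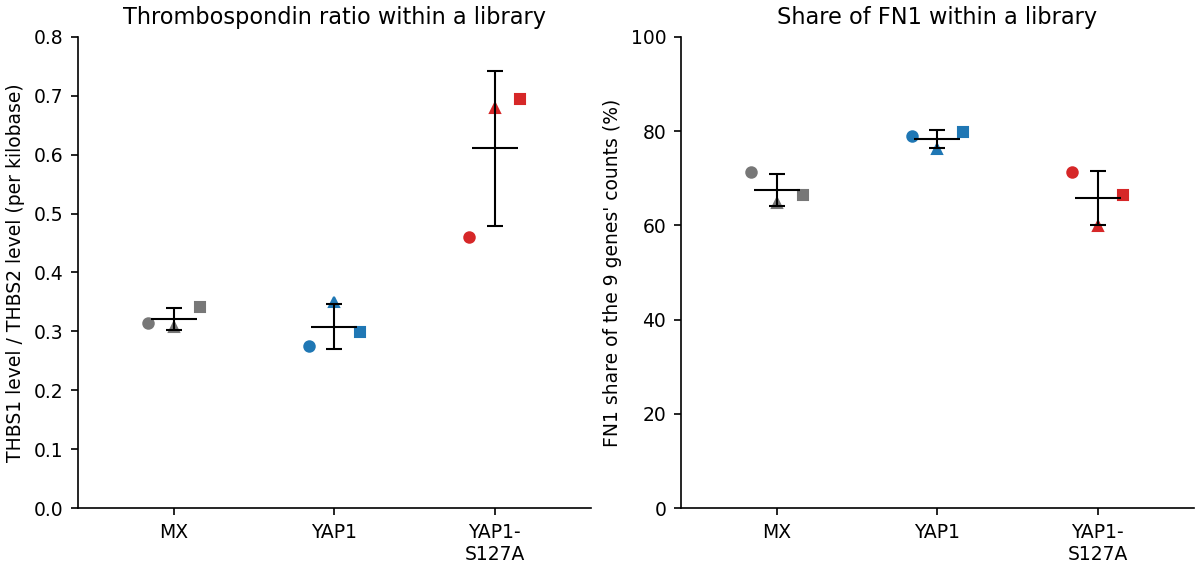
Left, THBS1 over THBS2 in each library, each as CPM per kilobase (y axis, no unit, from 0). Right, FN1 as a percentage of the counts of the 9 genes (y axis). Circles, triangles and squares are replicates 1, 2 and 3, long bars are means and whiskers 1 SD (n = 3); the YAP1-S127A ratios lie at 0.460 to 0.694, above the 0.275 to 0.350 of the other groups, and the FN1 share is highest in YAP1 (76.1 to 79.8%).

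SPARC (ENSG00000113140, chromosome 5, 151661096 to 151687165, minus strand) encodes osteonectin, a collagen- and calcium-binding protein that loosens cell attachment and takes part in collagen fibril assembly. Its level was 1726, 2283 and 1755 CPM in MX, 1992, 2759 and 2443 CPM in YAP1 and 3058, 4504 and 3756 CPM in YAP1-S127A libraries. Replicate 2 was the highest library of each group, and all YAP1-S127A libraries were above all others. SPARC rose with YAP1-S127A from 1921 ± 313 to 3773 ± 723 CPM (SD, n = 3), by 0.97 on the log2 scale (SE 0.17, edgeR adjusted p = 0.000435). With YAP1 the log2 fold change was 0.32 (95% interval -0.04 to 0.68, adjusted p = 0.316), and the groups overlapped. Between the constructs it was 0.65 (SE 0.17, edgeR adjusted p = 0.0541), just outside the threshold. It passed there in DESeq2 (0.00425), without MX replicate 1 (0.0250) or 2 (0.0352) and without YAP1-S127A replicate 1 (0.0290), and reached an adjusted p of 0.268 without YAP1-S127A replicate 2.

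Fibroblast and pericyte markers were looked at beside SPARC, and they did not all move in the same direction. Their summed level was 965 to 1486 CPM in MX, 1400 to 1750 CPM in YAP1 and 2198 to 4030 CPM in YAP1-S127A libraries, most of it COL1A1, which the MX libraries already held at 929 CPM. Of the 11 markers 8 were tested, and 5 rose and 1 fell with YAP1-S127A, against 9.53% and 8.84% of all genes. COL1A1 rose by 1.60 on the log2 scale, COL1A2 by 6.68 (from 0.741 to 80.5 CPM), LUM by 3.53 (from 0.871 to 9.53 CPM), FAP by 2.11 (from 0.265 to 1.11 CPM) and PDGFRB by 0.63 (from 30.2 to 46.8 CPM), while RGS5 had a log2 fold change of -1.77. COL3A1 was below the count filter and not tested, at 0.0564 CPM in MX, 0.124 CPM in YAP1 and 2.78 CPM (SD 2.61) in YAP1-S127A. PDGFRA had no count in the YAP1-S127A libraries, and DCN (0.792 CPM) and THY1 (0.129 CPM) were near 0 there. ACTA2 averaged 7.91 CPM there and 9.72 CPM in MX and did not pass (log2 fold change -0.31, edgeR adjusted p = 0.317). With YAP1, where SPARC did not pass, 1 marker rose and 1 fell, against 3.23% and 3.58% of all genes. These were LUM (1.60, edgeR adjusted p = 0.00345) and RGS5 (-1.60, 7.62e-07). The part of these markers in the difference in SPARC was not tested.

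SPP1 (ENSG00000118785, chromosome 4, 87975650 to 87983426, plus strand) encodes osteopontin, a phosphorylated RGD ligand of alpha-v integrins that also binds CD44 and is made by kidney tubule cells. It was at 2167, 2387 and 2304 CPM in MX, 1120, 1550 and 1558 CPM in YAP1 and 1312, 1163 and 1312 CPM in YAP1-S127A libraries. Every library with a construct was below every MX library, and the construct groups overlapped. SPP1 fell with YAP1 from 2286 ± 111 to 1409 ± 250 CPM (SD, n = 3), with a log2 fold change of -0.70 (SE 0.14, edgeR adjusted p = 0.00449). With YAP1-S127A it fell to 1262 ± 86.3 CPM (SD, n = 3), with a log2 fold change of -0.86 (SE 0.14, edgeR adjusted p = 0.000293). The difference between the constructs was -0.16 on the log2 scale (95% interval -0.46 to 0.14, adjusted p = 0.723). Both falls passed in every alternative tried, with adjusted p values of up to 0.0254 and 0.0141.

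NPNT (ENSG00000168743, chromosome 4, 105894775 to 106004027, plus strand) encodes nephronectin, a basement membrane ligand of integrin alpha-8 beta-1 that is needed for kidney development. It had 186, 94 and 114 counts in MX, 410, 623 and 605 in YAP1 and 275, 560 and 813 in YAP1-S127A libraries. In CPM these were 6.63, 5.68 and 4.28 in MX, 21.2, 35.3 and 26.8 in YAP1 and 21.0, 35.5 and 42.7 in YAP1-S127A. All 6 libraries with a construct were above the MX libraries, with the largest fold changes of the 8 tested genes, and the construct groups overlapped. NPNT rose with YAP1 by a log2 fold change of 2.33 (SE 0.27, edgeR adjusted p = 0.000197), or 5.02-fold. With YAP1-S127A it rose by 2.59 (SE 0.27, edgeR adjusted p = 3.19e-05), or 6.0-fold. Between the constructs the log2 fold change was 0.26 (95% interval -0.28 to 0.80, adjusted p = 0.748). Both rises passed in every alternative tried, with adjusted p values of up to 0.0114 and 0.00371.

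The partner integrin alpha-8 (ITGA8) was below the count filter, at 0.0828 CPM in MX and 0.0254 CPM in YAP1-S127A. INTS12, a subunit of the Integrator complex, overlaps NPNT on the opposite strand, and no source used here gives the strand setting of the counting. INTS12 had 170 to 337 counts per library and log2 fold changes of 0.03 and 0.19 against MX (adjusted p = 0.952 and 0.471). SPP1 and NPNT, which moved in opposite directions, lie on the same chromosome, where the median over tested genes was 0.00 and 0.01 on the log2 scale. A part of chromosome position in either change was not tested.

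EDIL3 (ENSG00000164176, chromosome 5, 83940554 to 84384793, minus strand) encodes an RGD ligand of alpha-v beta-3 integrin with discoidin domains that bind phospholipid. It was scarce, with 45, 39 and 44 counts in MX, 26, 35 and 29 in YAP1 and 18, 55 and 45 in YAP1-S127A libraries. That is 1.60 to 2.36 CPM, 1.29 to 1.98 CPM and 1.37 to 3.49 CPM, and the groups overlapped. The log2 fold change was -0.27 with YAP1 (95% interval -0.97 to 0.43, adjusted p = 0.729) and 0.40 with YAP1-S127A (-0.29 to 1.08, adjusted p = 0.452). Neither difference passed, and the intervals include both 0 and differences as large as -0.97 and 1.08 on the log2 scale.

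POSTN (ENSG00000133110, chromosome 13, 37562583 to 37598844, minus strand) encodes periostin, which links collagen, fibronectin and tenascin C and is typical of fibroblasts. It had 0 counts in 8 libraries and 1 count in YAP1-S127A replicate 3. A count of 0 allows a level of up to 3 counts, or 0.107 to 0.229 CPM in these libraries. No comparison could be made for it.

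**Figure D3:**
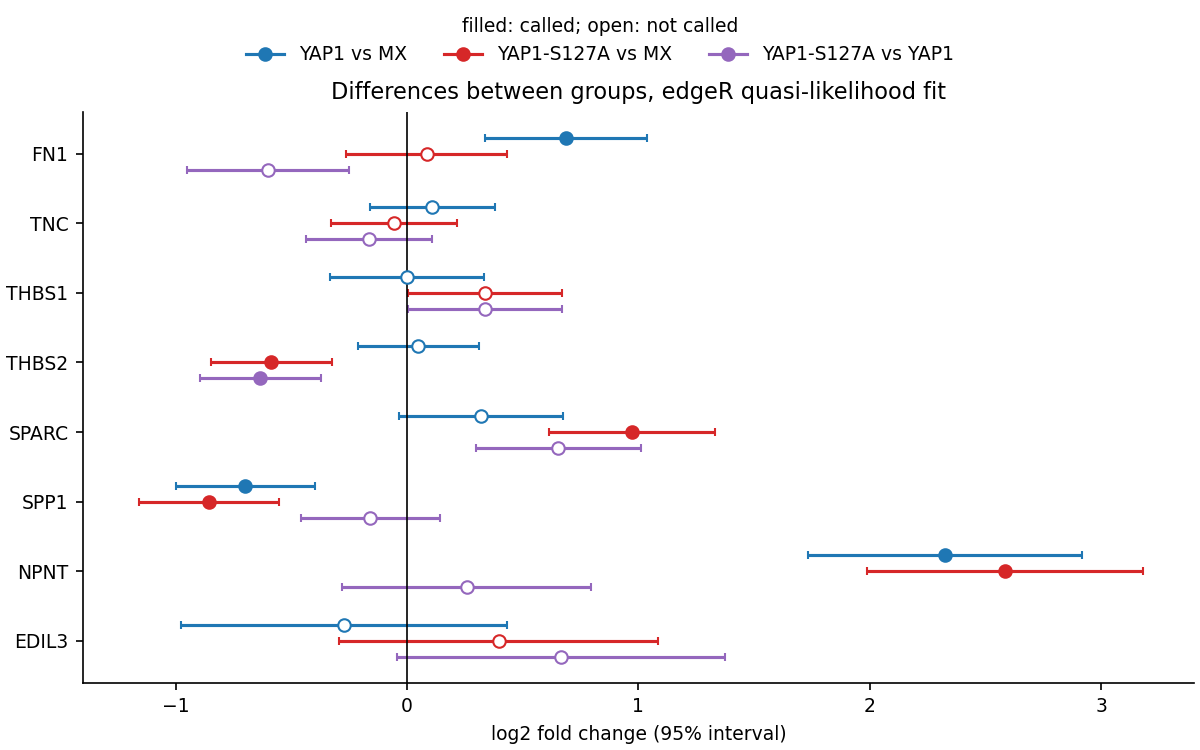
Log2 fold change of each tested gene (x axis) with its 95% interval from edgeR, for each construct against MX and for the difference between the constructs (YAP1-S127A over YAP1). Filled points passed an adjusted p of 0.05; NPNT lies farthest from 0 (2.33 and 2.59 against MX), SPP1 is below 0 in both comparisons against MX, and THBS2 is the gene that passed between the constructs (-0.63).

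Set side by side as CPM per kilobase of gene length, the genes that led differed between groups. SPP1 led in MX, at 985 ± 47.9, followed by FN1 at 622 ± 66.5 and SPARC at 398 ± 64.9 CPM per kilobase (SD, n = 3). With YAP1 the order was FN1 (1000.04 ± 152), SPP1 (607 ± 108) and SPARC (496 ± 79.8), where the SPP1 and SPARC libraries overlapped. With YAP1-S127A it was SPARC (781 ± 150), FN1 (659 ± 87.9) and SPP1 (544 ± 37.2), and each of these overlapped its neighbour. By mean level per kilobase a different gene thus came first in each group, though in YAP1-S127A not beyond the spread. The order between genes rests on the deposited lengths, 17315 bases for FN1, 4831 for SPARC and 2321 for SPP1. Whether these match the transcripts made was not tested. By CPM, without length, FN1 came first in all 3 groups. Below SPP1, FN1 and SPARC, the genes THBS2, THBS1 and TNC kept this order in all 3 groups. They stood at 84.7, 27.1 and 14.5 CPM per kilobase in MX, with no overlap between neighbours. NPNT at 0.904 and EDIL3 at 0.326 CPM per kilobase came last of the detected genes in MX. NPNT moved from 16.0-fold below TNC in MX to 3.44-fold below it with YAP1 and 2.58-fold with YAP1-S127A.

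**Figure D4:**
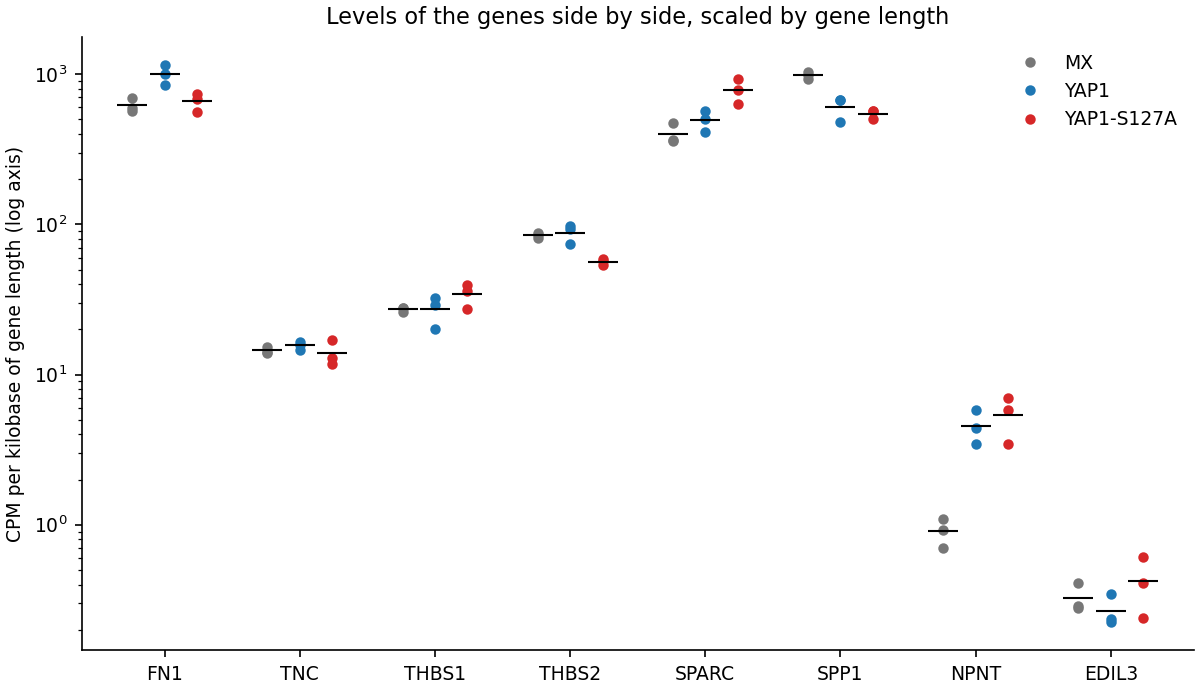
CPM per kilobase of gene length (y axis, log scale) for the 8 tested genes, with 1 point per library and a bar at each group's mean. SPP1, FN1 and SPARC lie within 357 and 1155 CPM per kilobase in all libraries, and NPNT has the largest fold difference, from 0.904 in MX to 5.41 in YAP1-S127A, without a change in rank.

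Over all tested genes 3.23% rose and 3.58% fell with YAP1, and 9.53% rose and 8.84% fell with YAP1-S127A. Among 26 related adhesive and matricellular genes 14 were tested. Of these, 2 rose and 2 fell with YAP1, and 4 rose and 2 fell with YAP1-S127A. Their median log2 fold change was -0.02 and 0.20, against 0.00 and 0.00 over all genes. MATN3, a matrilin that bridges collagen and proteoglycans, rose by 0.97 with YAP1 (adjusted p = 0.000441) and by 1.70 with YAP1-S127A (1.91e-07). FSTL1, a secreted relative of SPARC, rose by 0.54 (0.0240, lost without MX replicate 3 at 0.120 and without YAP1 replicate 2 or 3 at 0.155 or 0.0603) and 0.98 (7.41e-05). MATN2, another matrilin, rose by 1.17 with YAP1-S127A (0.000159). SPOCK1, a proteoglycan with a SPARC-type domain, changed by -0.96 (7.47e-05) and -1.67 (4.02e-08). ECM1, a secreted glycoprotein of basement membranes, changed by -1.0 (0.000675) and -1.04 (0.000185). Relatives of SPARC thus moved in both directions. The close paralogs of the members, THBS3 (log2 fold change with YAP1-S127A 0.14, adjusted p = 0.544) and THBS4 (-0.62, adjusted p = 0.504, from only 0.591 CPM in MX), did not pass, and TNR and TNN, the tenascins beside TNXB, were at or near 0.

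**Figure D5:**
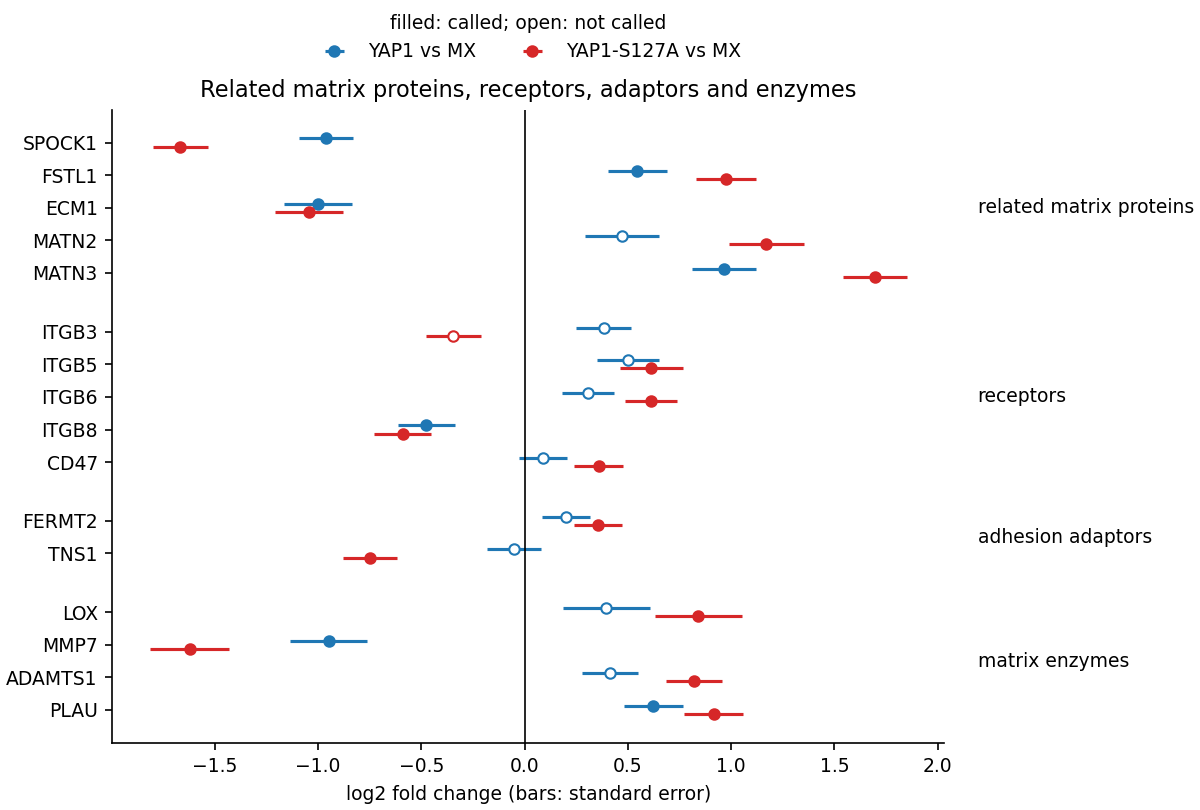
Log2 fold change (x axis, bars are the standard error) of named related matrix proteins, receptors, adhesion adaptors and matrix enzymes with YAP1 (blue) and YAP1-S127A (red) against MX, where filled points passed an adjusted p of 0.05. MATN3 (1.70) and SPOCK1 (-1.67) lie farthest from 0 with YAP1-S127A, and ITGB3 passed neither comparison against MX.

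Of 17 integrin subunits and other receptors of these proteins, 13 were tested, and 0 rose and 1 fell with YAP1 in edgeR (4 and 1 at an unadjusted p under 0.05, 1 and 1 in DESeq2, 0 and 0 in limma-voom), while 3 rose and 1 fell with YAP1-S127A. In edgeR, 6.81% of all tested genes were called with YAP1 and 18.4% with YAP1-S127A. ITGB8, which pairs with alpha-v, changed by -0.48 with YAP1 (adjusted p = 0.0422) and -0.59 with YAP1-S127A (0.00501). The alpha-v partners ITGB5 and ITGB6 both rose by 0.61 with YAP1-S127A (0.00716 and 0.00170). CD47, a thrombospondin receptor, rose by 0.36 (0.0383). ITGB3, the partner of alpha-v in the classical vitronectin receptor, passed only between the constructs, at -0.73 with YAP1-S127A against YAP1 (0.00497). The fibronectin receptor subunits ITGA5 and ITGB1 had log2 fold changes of 0.24 and 0.17 with YAP1-S127A (adjusted p = 0.238 and 0.456).

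Of 12 focal adhesion adaptors and kinases, all tested, 0 passed with YAP1 in edgeR, DESeq2 or limma-voom (2 were higher at an unadjusted p under 0.05 in edgeR), and 1 rose and 1 fell with YAP1-S127A. These counts and those of the enzymes below stand beside 6.81% of all tested genes called with YAP1 and 18.4% with YAP1-S127A. Neither list was tested as a set. FERMT2, the integrin activator kindlin-2, rose by 0.36 (adjusted p = 0.0370), and TNS1, the actin-binding tensin 1, changed by -0.75 (0.000478). Of 9 enzymes that cross-link, cleave or phosphorylate the members, 8 were tested, and 1 rose and 1 fell with YAP1 and 3 rose and 1 fell with YAP1-S127A. PLAU, the urokinase that generates plasmin, rose by 0.62 (0.00977) and 0.91 (0.000138). ADAMTS1, a metalloprotease with thrombospondin repeats, rose by 0.82 (0.000261) and LOX, the lysyl oxidase, by 0.84 (0.0142), both with YAP1-S127A. MMP7, matrilysin, which cleaves osteopontin and fibronectin, changed by -0.95 (0.00390) and -1.62 (9.37e-06).

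Several of these calls were lost without single libraries or under other settings. Scaling to total counts ended the YAP1-S127A calls of ITGB5 (adjusted p = 0.0893), ITGB6 (0.0951), CD47 (0.696), FERMT2 (0.758) and LOX (0.0682) and the YAP1 call of FSTL1 (0.0962). With the mitochondrial share as covariate CD47 (0.247), FERMT2 (0.514) and ADAMTS1 (0.0612) lost theirs. CD47 and FERMT2 also lost them with no filter (0.0667 and 0.0852) and with only the groups compared (0.0662 and 0.0708), and ITGB8 lost its YAP1 call with only the groups compared (0.0542) and in limma-voom (0.0612). The call of ITGB8 with YAP1 was lost without MX replicate 1 (adjusted p = 0.104), any YAP1 library (0.0880 to 0.170) or YAP1-S127A replicate 1 or 3 (0.0552 and 0.0600). CD47 lost its call without MX replicate 3 (0.186), YAP1 replicate 2 or 3 (0.0556 and 0.0577) or YAP1-S127A replicate 2 or 3 (0.0956 and 0.163). FERMT2 lost it without any library but MX replicate 1 and YAP1 replicate 1 (0.0511 to 0.167). Without MX replicate 1 MMP7 had an adjusted p of 0.0538 with YAP1, and PLAU had 0.0532 and 0.0647 without MX replicate 3 or YAP1 replicate 2. ITGB3 had 0.0560 between the constructs without YAP1 replicate 3. With YAP1-S127A by replicate 2 alone, TNS1 and ADAMTS1 lost their calls against MX, at log2 fold changes of -0.64 and 0.54. In that setting ITGB3 lost its call between the constructs, at -0.91, and the lone library was assumed to vary like the other groups.

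Of 8 textbook YAP targets, 5 rose in each comparison against MX, namely ANKRD1, CYR61, AMOTL2, AXL and LATS2. Over all tested genes 3.23% rose with YAP1 and 9.53% with YAP1-S127A. The muscle-type cofactor ANKRD1 was higher by 2.05 with YAP1 and by 2.84 with YAP1-S127A, and LATS2, a Hippo kinase, by 0.56 and 1.06. The YAP1 call of LATS2 was lost under total counts (adjusted p = 0.0623). CTGF (-0.07 and 0.35), AMOTL1 (0.30 and -0.33) and F3 (0.12 and -0.17) did not pass against MX. Between the constructs 3 of the 8 were higher with YAP1-S127A and 1 was lower, against 1.13% and 0.839% of all genes. The 3 were ANKRD1 (0.79, edgeR adjusted p = 0.0194), AMOTL2 (0.62, 0.00322) and LATS2 (0.50, 0.0373). Under total counts all 3 lost these calls (0.0822, 0.124 and 0.300). Of 21 alternatives in all, ANKRD1 lost its call in 7, LATS2 in 10 and AMOTL2 in 2. With the mitochondrial share as covariate ANKRD1 and LATS2 had edgeR adjusted p values of 0.259 and 0.125. Without YAP1-S127A replicate 3 they had 0.168 and 0.184. AMOTL1 did pass between the constructs, at -0.63 (adjusted p = 0.0177), a call lost when YAP1 replicate 1 (0.0722), YAP1 replicate 3 (0.116) or YAP1-S127A replicate 3 (0.149) was left out, with the mitochondrial share as covariate (0.101) and with YAP1-S127A by replicate 2 alone (0.280). With YAP1-S127A against MX it passed under total counts (-0.61, adjusted p = 0.00350) and without MX replicate 2 (-0.43, adjusted p = 0.0400).

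Genes whose level followed a member most closely over the 9 libraries were named by Pearson correlation of log2 CPM, as a description, since the libraries fall into 3 groups. NPNT was most like FGFR2 (r = 0.992), FBN2 (0.988) and ASTN1 (0.982), and SPP1 like FGFR3 (0.985), ENDOD1 (0.983) and TCTN1 (0.982). SPARC was most like LAMB2 (0.987), NKAIN4 (0.984) and COL1A1 (0.983). THBS2 was most like TENM4 (0.959), DPP4 (0.957) and VANGL2 (0.949), and THBS1 like GPAM (0.972) and TMTC3 (0.971). FN1 was most like UBTD2 (0.977, and 0.837 when libraries were scaled to total counts), SLC16A5 (0.935) and PTPRK (0.932). TNC was most like OLFML2A (0.978), ANKRD53 (0.898) and HMGB3 (0.894), and EDIL3 like CADM4 (0.945), PIGP (0.945) and BCAM (0.929).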

How the data were processed

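Raw read counts per gene, deposited by the authors as 1 table with a column for each of the 9 libraries, were used as they stand. The mouse build GRCm39 and the tools HISAT2, Cufflinks and Salmon 1.9.0 stand in the submitters' processing notes without a role, and that build does not describe the human genes listed. No source used here gives the counting program, strand setting or human build. Gene length, deposited beside the counts in bases (another unit per the file headers), served only to set levels per kilobase. The 9 genes and the related lists were chosen with earlier results of these data known.

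Genes were kept by edgeR's filterByExpr (15492 of 58735), scaled by TMM and fitted over all 9 libraries with group as the only term (edgeR 4.0.16 in R 4.3.3, robust quasi-likelihood, two-sided, Benjamini-Hochberg adjustment, called under 0.05). SE is the absolute log2 fold change over the square root of F. Up to 5 called genes per related list were named by the smallest p with YAP1-S127A, all 8 YAP targets, and 3 correlated protein-coding genes per member (log2 CPM, prior count 2). For THBS1, 1 of these is not reported here. Alternatives were RLE and total-count scaling, no mitochondrial genes, other filters, DESeq2 1.42.0, protein-coding genes alone, limma-voom (limma 3.58.1), only the groups compared, the replicate number as a block, the mitochondrial share as covariate and each library left out. Those chosen after seeing the data were YAP1-S127A by replicate 2 alone and the settings for mean levels, the thrombospondin ratio and correlations. INTS12, THBS3, THBS4, TNR, TNN, ITGA5, ITGA8 and ITGB1 were named outside this rule, after their values were seen, as an overlapping gene, paralogs and receptors. The fit was tested on simulated counts. Total counts per library were 15789722 to 24811150, and floors cover counting error only. No human sequences were used here.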

Additional observations from a re-analysis of the deposited data

How the results depend on the processing

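In the comparisons against MX, 4 of the 9 genes were called with YAP1-S127A in every alternative run, and 3 with YAP1 except without MX replicate 3 or YAP1 replicate 2 or 3 (2 each). Between the constructs the 1 call became 2 under total counts and with the mitochondrial share as covariate, 3 without mitochondrial genes, with no filter, in DESeq2, with only the groups compared and with the replicate block, 0 with YAP1-S127A by replicate 2 alone (assumed to vary like the other groups), and 0 to 3 without single libraries.

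FN1 between the constructs passed at a log2 fold change of -0.81 under total counts, -0.61 without mitochondrial genes, -0.62 with no filter, -0.60 in DESeq2, -0.61 with only the groups compared, -0.61 with the replicate block and -0.86 with the covariate. SPARC passed there at 0.65, 0.64, 0.65, 0.65 and 0.65 without mitochondrial genes, with no filter, in DESeq2, with only the groups compared and with the block, and THBS2 was lost at -0.73 with replicate 2 alone. Without single libraries these ranged from -0.71 to -0.48 (FN1), 0.50 to 0.78 (SPARC) and -0.75 to -0.55 (THBS2), and FN1 with YAP1 against MX from 0.57 to 0.79. The cause was not tested.

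Differences near 0 reversed. With YAP1, THBS1 was -0.0799 under total counts, -0.00233 with a stricter filter, -0.00400 with protein-coding genes only, -0.0256 in limma-voom, -0.0311 with the replicate block and -0.14 to 0.18 without single libraries; THBS2 was -0.0279 under total counts and -0.0311 to 0.161 without single libraries. With YAP1-S127A against MX, FN1 was -0.21, -0.25 and -0.16 under total counts, with the covariate and with replicate 2 alone, and -0.00171 to 0.18 without single libraries, and TNC was 0.20 and 0.23 with the covariate and replicate 2 alone and -0.232 to 0.0445 without single libraries. TNC between the constructs was 0.0320 and 0.118 with the covariate and replicate 2 alone. With YAP1, F3 was -0.0599 in limma-voom and -0.598 to 0.481 without single libraries, and CTGF -0.188 to 0.0610, and F3 with YAP1-S127A was -0.324 to 0.0252.

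Genes called with YAP1-S127A against MX numbered 4447 under total counts, 1405 with the covariate and 1260 with replicate 2 alone, against 2845, and 1827 to 3063 without single libraries. Between the constructs they numbered 616, 520, 475, 477, 472 and 138 under total counts, with no filter, in DESeq2, with only the groups compared, with the block and with replicate 2 alone, against 305, and 125 to 460 without single libraries. With YAP1 they ranged from 598 to 1413 without single libraries.

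Of 9 pairs of libraries with the same replicate number 1 correlated over 0.1 (range -0.18 to 0.20), and 3 of 9 libraries correlated best with their own number, so the numbers were not taken to pair libraries. With the replicate block 1428, 3426 and 472 genes were called. EDIL3 rested on 18 to 55 counts per library, and POSTN had too few counts to be tested.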
